A study of Mus musculus with 7 samples.

Results

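The 10 genes described here encode enzymes that make cysteine from methionine or break it down, together with the transporter that brings taurine into cells (Mat2a, Ahcy, Cbs, Cth, Cdo1, Csad, Slc6a6, Mpst, Ethe1 and Suox). They were selected by name for their place in the methionine cycle, transsulfuration, taurine synthesis and sulfide oxidation. All 10 were found by name among 38293 genes in the count table, and 9 of them were among the 14869 genes with enough counts to be tested. Cbs had too few.

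The question was whether restricting dietary cystine changes gene expression in the small intestine. Male C57BL/6NRJ mice first ate a high-fat AIN93G control diet during 1 week of acclimatization. They then received either a normal cystine (normal cys) or a low cystine (low cys) version of it for 2 weeks. Mucosal scrapings from the last part of the small intestine gave polyA RNA libraries from 4 normal cys and 3 low cys mice, 1 library for each mouse. Total counts lay between 19712355 and 22412703 in the normal cys libraries and were 21942518, 15708368 and 14888760 in low cys replicates 1 to 3.

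Methionine is activated to S-adenosylmethionine, the methyl donor of the cell, and is recovered as homocysteine once the methyl group has been passed on. Transsulfuration moves the sulfur of homocysteine to serine and so yields cysteine, which is oxidized towards taurine or degraded through mercaptopyruvate and sulfide to sulfite and sulfate. In the gut, cysteine also serves glutathione and mucin synthesis, while hepatocytes attach taurine to bile acids.

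Levels of different genes were compared as RPKM, the usual unit of counts scaled to both exon length and library size, mean ± SD over the 7 libraries of both diets. Suox, sulfite oxidase, had the highest level of the 10 genes at 216 ± 30.5 RPKM (n = 7), and Mpst, mercaptopyruvate sulfurtransferase, followed at 65.7 ± 22.5 RPKM (n = 7). The taurine transporter Slc6a6 (37.7 ± 6.46 RPKM), Mat2a (36.5 ± 5.29 RPKM) and Ahcy (33.8 ± 3.06 RPKM) came next, and the distances between these neighbours were smaller than their SDs. Cth stood at 19.7 ± 3.43 RPKM and Ethe1 at 16.4 ± 2.36 RPKM, a distance below the SD of Cth. Cdo1 (5.0 ± 1.85 RPKM) and Csad (3.09 ± 0.404 RPKM), the consecutive enzymes on the way to taurine, were low. Cbs was close to the limit of counting at 0.0828 ± 0.0610 RPKM.

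**Figure D1:**
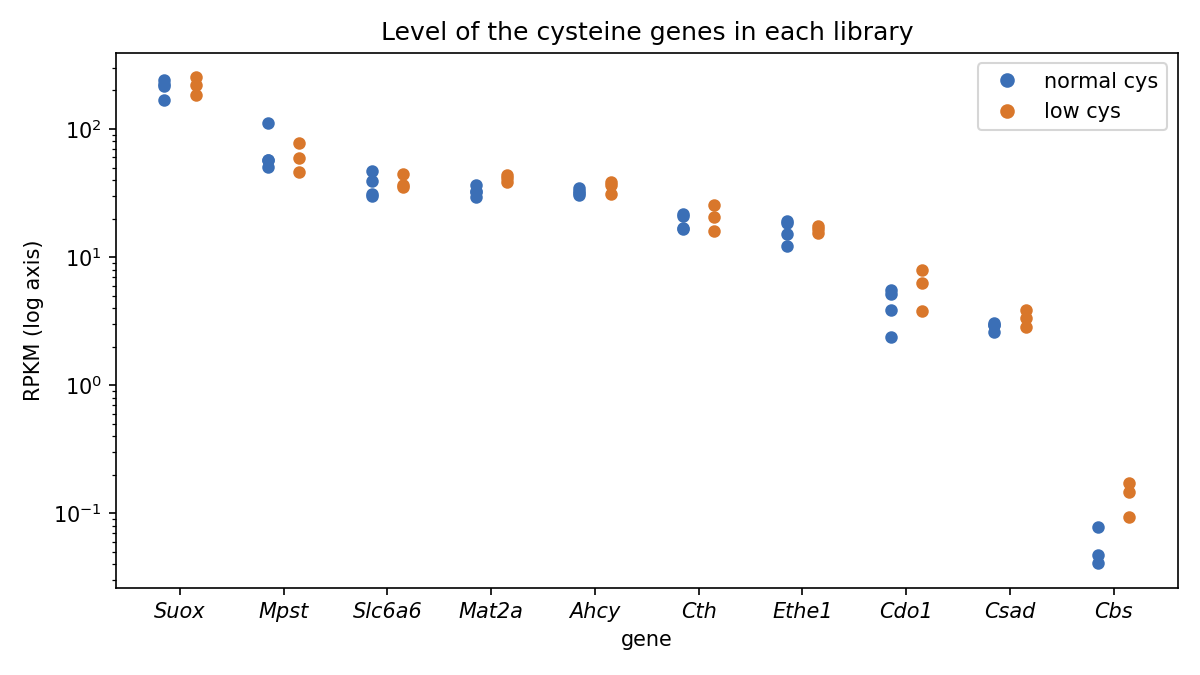
RPKM (log axis) of the 10 cysteine genes in each library, ordered by mean level, with normal cys libraries in blue and low cys libraries in orange. Suox lay between 168 and 253 RPKM and Cbs did not exceed 0.174 RPKM. The normal cys library with 0 Cbs counts has no place on a log axis and is not drawn.

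Between the diets, none of the 9 tested cysteine genes passed an adjusted p of 0.05 in edgeR, and 0 of all 14869 genes did (0%). At an unadjusted p under 0.05, edgeR called 1 of the 9, Mat2a, against 817 of 14869 genes (5.49%). DESeq2 called 0 of the 9 at an adjusted p under 0.05 and 1 at an unadjusted p under 0.05, against 16 (0.108%) and 940 (6.32%) of all genes. On normalized counts the diets did not overlap for 1 of the 9, again Mat2a, against 1015 of all genes tested (6.83%). The estimate was higher on low cys for 8 of the 9 genes, against 7607 of all 14869. Without normal cys replicate 3, or without low cys replicate 2, it was higher for 5 of the 9. The median log2 fold change was 0.12 for the 9 and 0.01 for all genes tested, and that of the 9 was 0.060 and 0.0027 without these libraries in turn, and 0.068 without normal cys replicate 1 and 0.19 without normal cys replicate 2. In scrapings that mix cell types, fewer cells of a type and less RNA per cell cannot be told apart.

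Mat2a (ENSMUSG00000053907, chr6:72432799-72439558 of GRCm38, minus strand) encodes the catalytic subunit of methionine adenosyltransferase in tissues other than the liver. Its level in CPM, the same unit without the scaling to length, was 90.1, 103, 82.6 and 92.2 in normal cys replicates 1 to 4. In low cys replicates 1 to 3 it was 123, 116 and 109 CPM. Every low cys library therefore lay above every normal cys library, a separation in this direction that 3.32% of the genes tested also showed. The log2 fold change was 0.34 (SE 0.12, 95% interval 0.06 to 0.61), with an unadjusted edgeR p of 0.0207 and an adjusted edgeR p of 0.794. Over the 35 assignments of the libraries to diets, the exact permutation p of the difference in mean log2 CPM (both directions counted) was 0.0571, and the smallest p it can give is 0.0286. Without normal cys replicate 3 the log2 fold change was 0.28 with an unadjusted edgeR p of 0.0598, and without low cys replicate 1 it was 0.30 with p of 0.0660. Under the 15 alternative settings its adjusted p lay between 0.381 and 1.000.

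The 3′ untranslated region of Mat2a is known for conserved hairpins that the methyltransferase METTL16 binds, and through them the splicing and stability of the mRNA respond to S-adenosylmethionine. The letters TACAGAGAA, known from these hairpins, were searched on the transcript strand of transcript Mat2a-201. They occurred 5 times within 1494 bases after the stop codon (chr6:72432799-72434292), and a sixth copy differed at the seventh letter. Of 16927 genes whose longest protein-coding transcript was at least that long, 373 (2.20%) had a copy in a final stretch of the same length, and 1 gene, Mat2a, had 3 or more. With any base at the seventh letter, 925 genes (5.46%) had a copy and 2 genes had 3 or more. Because the letters are known from the hairpins of Mat2a itself, its copies were given in advance and these counts are no test. The sites are shown with 10 bases on either side because they are the known regulatory part of this mRNA. Each is given 5′ to 3′ from the GENCODE transcript, in exon 9, with the searched letters in capitals. A match describes the letters only, and splicing was not measured.
Site 1, chr6:72434235-72434263: tggcgtaggtTACAGAGAAgccttcaagc
Site 2, chr6:72433451-72433479: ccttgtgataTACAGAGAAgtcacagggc
Site 3, chr6:72433272-72433300: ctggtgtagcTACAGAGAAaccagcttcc
Site 4, chr6:72433157-72433185: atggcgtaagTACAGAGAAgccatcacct
Site 5, chr6:72433046-72433074: caaggtgtccTACAGAAAAaccttgggtt
Site 6, chr6:72432938-72432966: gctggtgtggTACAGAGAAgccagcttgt

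Ahcy encodes the hydrolase that splits S-adenosylhomocysteine into homocysteine and adenosine. It read 89.0, 97.4, 85.4 and 92.2 CPM in normal cys replicates 1 to 4 and 103, 87.4 and 108 CPM in low cys replicates 1 to 3. Low cys replicate 2 lay inside the normal cys range, and the other low cys libraries lay above it. The log2 fold change was 0.13 (SE 0.12, edgeR adjusted p = 0.813), 0.068 without low cys replicate 3 and 0.22 without low cys replicate 2. These values are uncertain because 68.7% of the 50-base stretches of Ahcy transcripts also occur in other genes, mostly Gm4737, which itself had 60.5 to 73.2 CPM.

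Transsulfuration begins with Cbs (ENSMUSG00000024039, chr17:31612623-31637199), which joins homocysteine and serine to cystathionine. It had 3, 3, 5 and 0 counts in normal cys replicates 1 to 4 and 12, 5 and 9 counts in low cys replicates 1 to 3. The 0 counts of normal cys replicate 4 allow a level of up to 0.143 CPM. On CPM the diets did not overlap, as was so in this direction for 3.22% of the 22796 genes with at least 1 count. Normal cys replicate 3 and low cys replicate 2 both had 5 counts. Only scaling to library size set them apart, at 0.263 and 0.312 CPM. The summed counts, 26 on low cys and 11 on normal cys, gave a ratio of 3.42 per library size, with a 95% interval of 1.63 to 7.67 that covers counting error only. The difference in mean log2 CPM was 1.33, with p = 0.0571 in the exact permutation test. In an edgeR fit with no filter on low counts, the log2 fold change was 1.69 (SE 0.79, unadjusted p = 0.0501, adjusted p = 0.794).

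Cth cleaves cystathionine to release cysteine. It read 37.9, 47.7, 37.4 and 48.9 CPM in normal cys replicates 1 to 4 and 36.5, 57.6 and 46.6 CPM in low cys replicates 1 to 3. The low cys libraries held both the lowest and the highest value. The log2 fold change was 0.12 (SE 0.18, edgeR adjusted p = 0.862), and it was -0.050 without low cys replicate 2.

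Cdo1 oxidizes cysteine to cysteine sulfinate, the entry to taurine synthesis. Its level was 8.41, 7.95, 5.89 and 3.63 CPM in normal cys replicates 1 to 4 and 9.67, 5.81 and 12.2 CPM in low cys replicates 1 to 3. Low cys replicates 1 and 3 lay above the normal cys libraries and low cys replicate 2 lay among them. Its log2 fold change, 0.51 (SE 0.33, 95% interval -0.24 to 1.27, edgeR adjusted p = 0.794), was 0.26 without low cys replicate 3 and 0.31 without normal cys replicate 4. Csad, which decarboxylates cysteine sulfinate, read 5.94 to 6.90 CPM on normal cys and 6.50 to 8.77 CPM on low cys, with a log2 fold change of 0.22 (SE 0.18, edgeR adjusted p = 0.804) that was 0.11 without low cys replicate 1. Slc6a6 read 187 to 290 CPM on normal cys and 216 to 276 CPM on low cys, with a log2 fold change of 0.08 (SE 0.19, edgeR adjusted p = 0.917). The diets overlapped for both. Without low cys replicate 2, the diets did not overlap for 5 of the 10 genes (Cbs, Cdo1, Csad, Mat2a and Ahcy), against 2 with all libraries. Over the 22796 genes with at least 1 count the share without overlap also went up, from 5.84% to 15.9%. Groups with fewer libraries separate more easily, and this share also rose without any other single library, to between 8.07% and 14.2%.

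Mpst takes sulfur from mercaptopyruvate, a product of cysteine. It read 76.4, 86.8, 86.0 and 169 CPM in normal cys replicates 1 to 4 and 70.2, 117 and 89.1 CPM in low cys replicates 1 to 3. Normal cys replicate 4 stood above all other libraries. The log2 fold change was -0.18 (SE 0.29, edgeR adjusted p = 0.872) and turned to 0.15 without that library. Ethe1, the mitochondrial persulfide dioxygenase, read 18.2 to 28.7 CPM on normal cys and 22.8 to 25.8 CPM on low cys, with a log2 fold change of 0.01 (SE 0.17). Suox, which turns sulfite into sulfate, read 394 to 568 CPM on normal cys and 432 to 595 CPM on low cys, with a log2 fold change of 0.05 (SE 0.17). Their edgeR adjusted p were 0.990 and 0.949. The signs of Ethe1, Suox and Slc6a6 turned when some single libraries were left out.

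**Figure D2:**
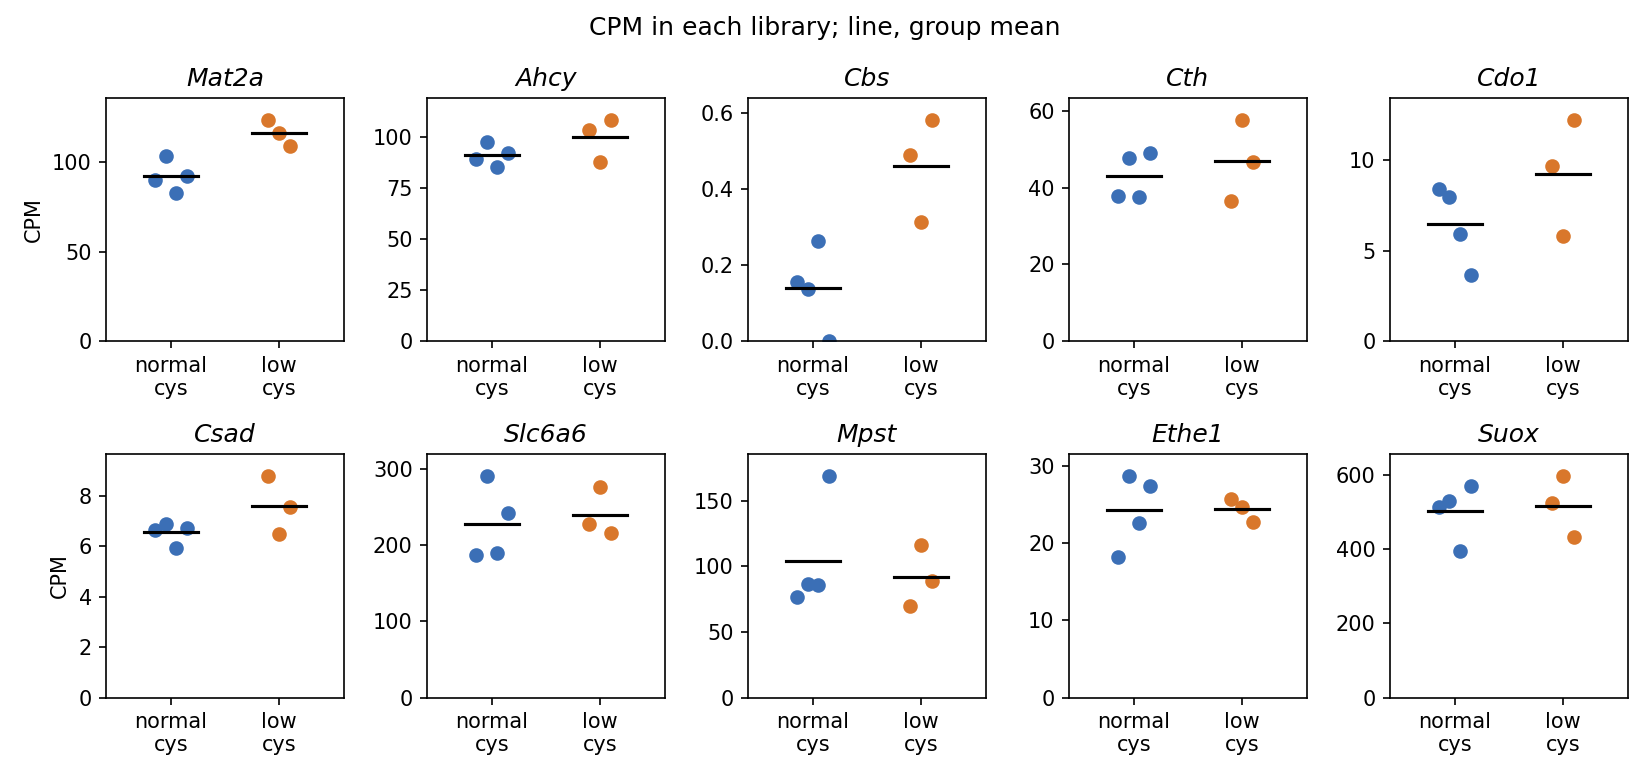
CPM of each cysteine gene (vertical axis from 0, its scale set for each gene) in the 4 normal cys and 3 low cys libraries, each point 1 library and each line a group mean. Points of the diets are apart for Mat2a, 82.6 to 103 against 109 to 123 CPM, and for Cbs, which did not exceed 0.580 CPM. For Cbs, normal cys replicate 3 and low cys replicate 2 had 5 counts each and are apart by scaling only. Points of the diets overlap for the other genes.

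Of 50 other genes of sulfur metabolism in 5 lists, 43 were tested, 0 passed an adjusted p of 0.05 in edgeR or DESeq2, and 1 had an unadjusted edgeR p under 0.05 (4 by DESeq2), where 5.49% and 6.32% of all genes did. By edgeR that gene was Got1, the cytosolic aspartate aminotransferase, which also acts on cysteine sulfinate. It read 86.0, 98.3, 86.2 and 81.9 CPM in normal cys replicates 1 to 4 and 54.2, 82.6 and 64.0 CPM in low cys replicates 1 to 3. Low cys replicate 2 lay within the normal cys range and the other low cys libraries lay below it. The log2 fold change was -0.40 (SE 0.16), with an unadjusted edgeR p of 0.0329, an adjusted edgeR p of 0.794 and an exact permutation p of 0.0571. Its unadjusted edgeR p was above 0.05 without low cys replicate 1 (log2 fold change -0.26, p of 0.144), low cys replicate 3 (-0.37, p of 0.100), normal cys replicate 2 (-0.33, p of 0.0765) or normal cys replicate 3 (-0.41, p of 0.0504), and with scaling by library size only (log2 fold change -0.27, p of 0.125). DESeq2 also called Slc36a1, an amino acid transporter (log2 fold change -0.70, unadjusted DESeq2 p of 0.0321), Ccbl1, a cysteine conjugate lyase (-0.87, p of 0.0325), and Mocs2 (-0.49, p of 0.0421). Slc36a1 and Ccbl1 are named after their values were seen, and their unadjusted edgeR p were 0.0570 and 0.0695. Without normal cys replicate 1 the edgeR log2 fold change of Slc36a1 was -0.43 (p of 0.143), and without normal cys replicate 4 that of Ccbl1 was -0.34 (p of 0.163).

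In the methionine salvage and polyamine list, the estimate was higher on low cys for all 9 genes tested, against 7607 of all 14869. Among these, Amd1 and Amd2 ranked the 7 libraries in the same order on CPM. Shared sequence was not checked for this pair, so Amd1 and Amd2 may not be separate signals, here or in the calls below. The median log2 fold change of the list was 0.30, and 0 of the 9 had an unadjusted edgeR or DESeq2 p under 0.05. Without normal cys replicate 1, edgeR called Amd1, Amd2 and Mtap of this list at that threshold (11.9% of all genes). Limma-voom with quality weights called Amd1, Mtap and Adi1 (12.4%). Adi1 was also called by edgeR without low cys replicate 2 (6.52%) and with scaling by library size only (6.97%). All 7 crypt and proliferation markers, Mki67 leading and none at 0, also had higher estimates on low cys, 0 of them with an unadjusted edgeR p under 0.05. They summed to 299, 203, 122 and 116 CPM in normal cys replicates 1 to 4 and 336, 185 and 295 CPM in low cys replicates 1 to 3, and their part in the values of the salvage genes was not tested. Enoph1, an enzyme of methionine salvage, had the highest RPKM there and a log2 fold change of 0.13 (SE 0.16), 0.048 without normal cys replicate 1 and 0.26 without normal cys replicate 4. The methionine cycle and remethylation list had 5 higher and 4 lower estimates among 9 tested, and Ahcyl2, a relative of Ahcy, had a log2 fold change of -0.20 (SE 0.20), -0.046 without normal cys replicate 4. Of its other 4 genes, Mat1a, the liver counterpart of Mat2a, had 1 count in 1 library and 0 in the other 6. The sulfide, persulfide and sulfate list had 6 higher and 7 lower estimates among 13 tested. Its gene of highest RPKM, the thiol methyltransferase Mettl7b, read 193 CPM in normal cys replicate 4 and 83.5 to 119 CPM in the other libraries. In the molybdenum cofactor list, which serves Suox, 2 estimates were higher and 3 lower, and Mocs2 had a log2 fold change of -0.49 (SE 0.22, exact permutation p = 0.200, unadjusted edgeR p = 0.0544).

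**Figure D3:**
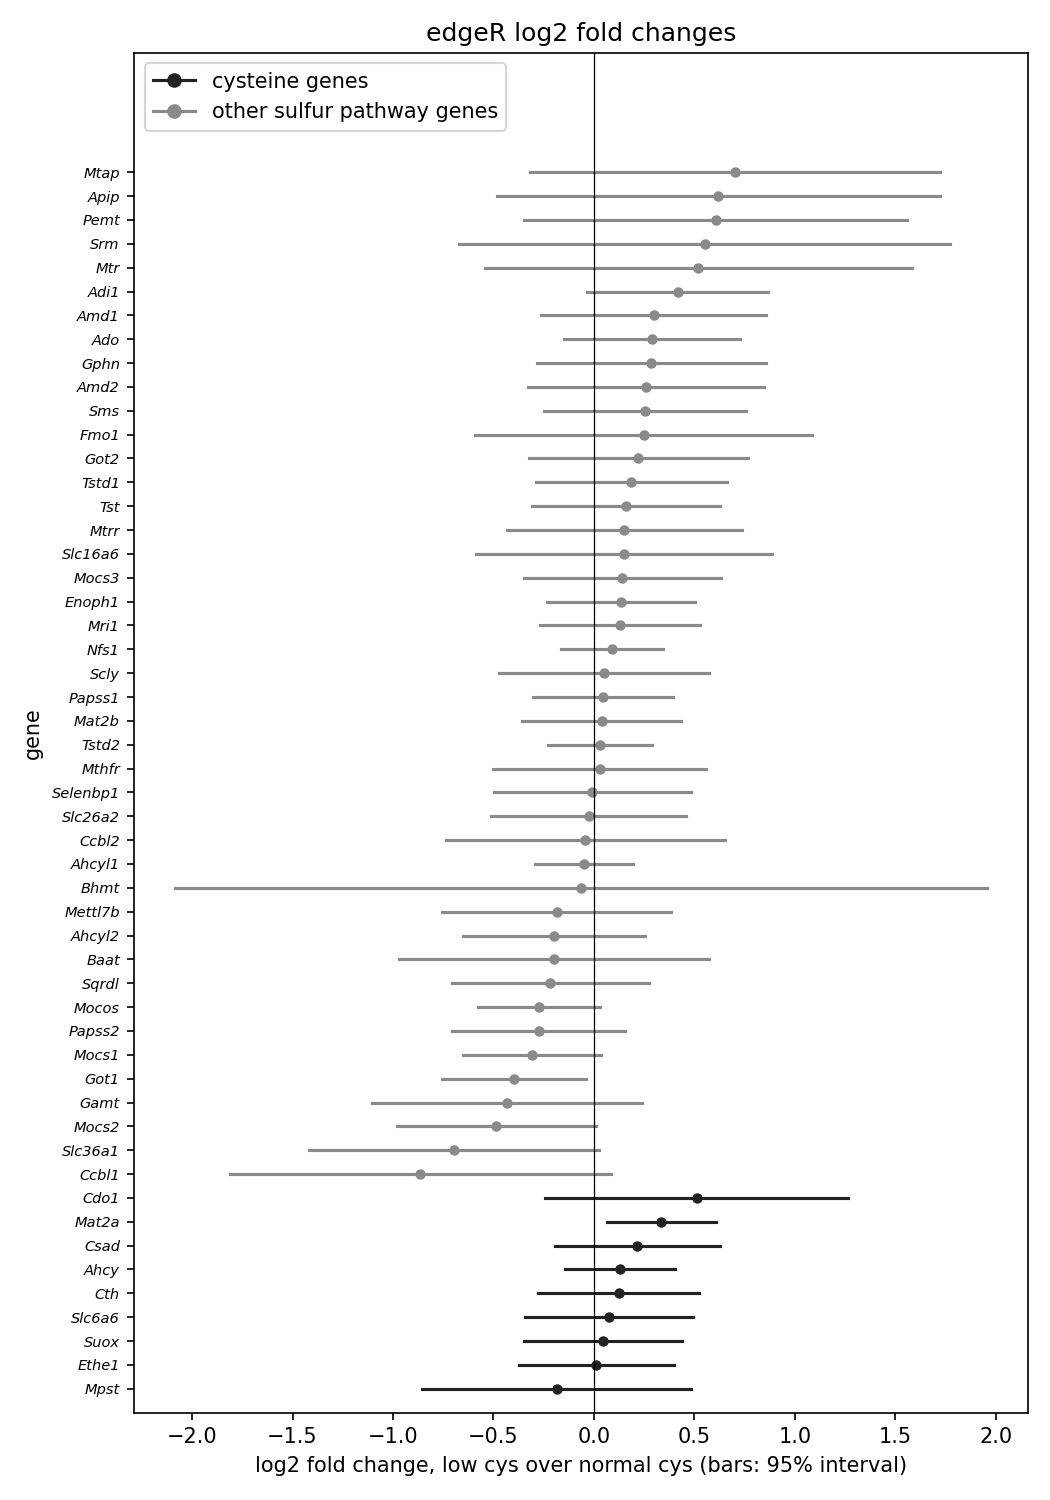
edgeR log2 fold changes (low cys over normal cys, horizontal axis) with 95% intervals for the 9 tested cysteine genes in black and the 43 other tested genes of sulfur metabolism in grey. The interval of Mat2a, 0.06 to 0.61, and that of Got1, -0.76 to -0.04, do not cross 0.

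The summed levels of 4 of 15 lists of cell type markers did not overlap between the diets, and the sums were not tested. Of all single genes tested, 6.83% did not overlap. The 8 ileal enterocyte markers summed to 39262, 41575, 58958 and 59858 CPM in normal cys replicates 1 to 4 and 21247, 38093 and 38945 CPM in low cys replicates 1 to 3. The sums did not overlap, by a narrow margin between low cys replicate 3 and normal cys replicate 1. Of the single markers only Vil1 did not overlap, 7 of 8 estimates were lower on low cys with Slc10a2 the exception (0.20), and the most abundant, Fabp2, overlapped. The 7 fibroblast markers, Vim leading, summed to 10.3 to 19.5 CPM on normal cys and 21.6 to 29.2 CPM on low cys. Of the 7, Col3a1 and Dcn did not overlap, and Vim did. Dcn, a matrix proteoglycan, had a log2 fold change of 1.55 and an adjusted p of 0.0292 in DESeq2 and 0.794 in edgeR. The 4 B and plasma cell markers in the table, Igj leading, summed to 37.8 to 117 CPM on normal cys and 150 to 219 CPM on low cys, and of these only Igj did not overlap. The 4 endothelial markers, Lyve1 leading, summed to 5.78 to 7.89 CPM on normal cys and 8.31 to 11.8 CPM on low cys, while each of the 4 overlapped. None of the markers in these 4 lists was at 0 in every library. Among lists whose sums overlapped, all 6 smooth muscle markers, Myh11 leading, had higher estimates on low cys. Of these, 2 had an unadjusted edgeR p under 0.05, as did 5.49% of all genes tested. They summed to 2.34 to 12.1 CPM on normal cys and 5.63, 38.2 and 14.4 CPM in low cys replicates 1 to 3. All 6 Paneth cell markers also had higher estimates, while all 4 tuft cell and all 5 T cell markers had lower ones. Over all genes tested, 7607 estimates were higher and 7262 lower. At an unadjusted edgeR p under 0.05, 2 fibroblast, 1 B and plasma cell and 1 enteroendocrine marker were also higher. At that threshold 1 ileal enterocyte and 1 tuft cell marker were lower. The part of these differences in the values of Mat2a, Cbs and Got1, or in the overlap counts without low cys replicate 2, was not tested. Pancreatic acinar markers were at or near 0, with Pnlip, Cel and Cela3b at 0 counts in every library.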

How the data were processed

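The authors trimmed reads with Trim Galore 0.6.5 after FastQC 0.11.8, removed ribosomal reads with SortMeRNA, aligned them to GRCm38 with STAR and deposited raw counts per gene from featureCounts. Whether counting used strand, and how reads with several matches were counted, is not given in the sources used here. For Mat2a, Csad, Ethe1, Slc6a6, Ahcyl2 and Mettl7b, reads from overlapping genes on the other strand may therefore be included. Of the 50-base stretches of Mat2a transcripts, 4.6% also occur in Gm9523, and 1.1% of those of Cbs occur in other genes.

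All 7 libraries entered 1 fit of low cys against normal cys in edgeR 4.0.16 (R 4.3.3): filterByExpr with a minimum count of 10 and a total of 15, TMM scaling, the robust quasi-likelihood F-test and Benjamini-Hochberg adjustment over all genes tested. CPM and RPKM used TMM-scaled library sizes, log2 CPM a prior count of 2, and RPKM the exon length in the table. The SE came from the log2 fold change and its F statistic. The floor for 0 counts was 3 counts. DESeq2 1.42.0, limma 3.58.1, other scalings and filters, and leaving out each library were alternatives. Sequences and overlaps came from GENCODE M21. Fits were tested on simulated data, only with changes larger than those estimated for the tested cysteine genes.

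The text names all 10 genes, each other sulfur gene with an unadjusted edgeR p under 0.05, the gene of highest RPKM in each list and the leading marker of lists whose sums are given. It also names Mat1a and the genes that share sequence with members. Slc36a1, Ccbl1, Amd1, Amd2, Mtap, Adi1 and the markers Vil1, Slc10a2, Col3a1, Dcn, Pnlip, Cel and Cela3b are named for their values. Members and lists were chosen with earlier results of these data known. No library pair had counts alike within sampling noise.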

Additional observations from a re-analysis of the deposited data

Results flagged for a closer look

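Among 32 values examined in the 4 normal cys libraries (17 genes and 15 summed marker lists, on log2 CPM), 3 had a library far from the rest, where chance gives about 1 in 20. In each it was normal cys replicate 4. Its gap to the nearest library was 0.840 of the whole range for Mpst, where it was highest. The gap was 0.916 for the B and plasma cell markers and 0.859 for the macrophage and dendritic cell markers, where it was lowest. Without this library the log2 fold change of Mpst was 0.15. The part of the marker differences in the value of Mpst was not tested.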

How the results depend on the processing

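No adjusted p of a cysteine gene fell under 0.05 in the edgeR, DESeq2 or limma fits or with any library left out. Genes with an adjusted p under 0.05 numbered 0 in edgeR, 16 by DESeq2, 4 by limma-voom with quality weights and 0 to 1 with a library left out. Cysteine genes with an unadjusted p under 0.05 numbered 0 to 1 with a library left out, 0 without normal cys replicate 3 or low cys replicate 1, where calls over all genes were 412 (2.77%) and 244 (1.64%) against 817 (5.49%). Other sulfur genes with an unadjusted p under 0.05 numbered 1 in edgeR, 4 by DESeq2, 8 by limma-voom with quality weights, 2 with no filter on low counts and 0 to 8 with a library left out. Calls over all genes at those settings were 5.49%, 6.32%, 12.4%, 4.88% and 1.64% to 11.9%. The 8 without normal cys replicate 1 include both Amd1 and Amd2, for which shared sequence was not checked. Cysteine genes whose diets did not overlap numbered 2 to 5 with a library left out, while the share of all genes with a count ran from 8.07% to 15.9%, the last, like the 5, without low cys replicate 2. With a library left out the diets separate more easily. Other causes of these changes were not tested.

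Scaling by library size only shifted the median log2 fold change of all genes by 0.14 and changed the genes with an unadjusted p under 0.05 from 396 higher and 421 lower to 911 higher and 126 lower. Relative to that shift, its log2 fold change of 0.48 for Mat2a is to be read against 0.34, and its -0.27 for Got1 against -0.40.

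Signs turned in 13 of 240 comparisons of a log2 fold change with an alternative. With a library left out, log2 fold changes ran from -0.050 to 0.29 for Cth, -0.39 to 0.15 for Mpst, -0.10 to 0.12 for Ethe1, -0.069 to 0.16 for Suox, -0.036 to 0.23 for Slc6a6, -0.32 to 0.10 for Mettl7b, 0.26 to 0.75 for Cdo1, 0.11 to 0.32 for Csad, 0.068 to 0.22 for Ahcy, -0.29 to -0.046 for Ahcyl2, 0.048 to 0.26 for Enoph1, -0.62 to -0.33 for Mocs2, -0.91 to -0.43 for Slc36a1, -1.07 to -0.34 for Ccbl1, 0.28 to 0.41 for Mat2a and -0.58 to -0.26 for Got1. Ethe1 was -0.0019 by limma-voom with quality weights and -0.0046 with no filter. With 3 and 4 libraries a group, intervals were wide, and Cbs is limited by its counts.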
